A study of Homo sapiens with 8 samples.

Results

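Ribonucleotide reductase and the enzymes that make, salvage and clear DNA precursors were followed in MCF10A cells with and without p53 after doxorubicin. The set held RRM1, RRM2 and RRM2B, which are the subunits of the reductase, TYMS, DUT and DTYMK, which serve the thymidylate branch, TK1 and DCK, which salvage deoxynucleosides, and SAMHD1, which degrades deoxynucleoside triphosphates. These genes were chosen by name and role, and were 9 of the 20296 genes that could be named on the arrays. All 9 were well above background on at least 1 of the 8 arrays, as were 15811 genes in all. After doxorubicin, RRM2B was 18.2-, 16.0- and 7.49-fold higher in p53+/+ than in p53-/- cells at 12, 24 and 48 h. RRM2 was 2.96- and 10.5-fold lower at 12 and 24 h. At 48 h it was not well above background in p53+/+ cells, and at least 366-fold lower by the signal floor described below. DCK and DUT were also at least 2-fold lower at each of the 3 times, whereas RRM1, TYMS and TK1 differed less than 2-fold until 48 h and SAMHD1 differed less than 2-fold throughout.

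Ribonucleotide reductase converts ribonucleotides into deoxyribonucleotides and pairs the large subunit RRM1 with a small subunit. RRM2 is the small subunit of dividing cells, made for S phase, whereas RRM2B, also known as p53R2, is a small subunit whose gene is a known p53 target and which serves DNA repair and mitochondrial DNA in cells that do not divide. Thymidylate is made from deoxyuridylate by TYMS or salvaged from thymidine by TK1, and DTYMK adds the next phosphate in either route.

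Both genotypes of MCF10A, a non-tumorigenic human mammary epithelial line, were compared, p53+/+ cells and p53-/- cells. Cells were harvested untreated at 0 h, or at 12, 24 and 48 h after doxorubicin (adriamycin, a drug that damages DNA), which the labels give as 0.5 µg/ml for 2 h. The study's methods give a higher dose. Each genotype and time had 1 single-colour Agilent array of total RNA, so no value has a replicate, and how the p53-/- line was derived or whether it is 1 clone is not given in the sources used here. In such bulk RNA, fewer cells that express a gene and less RNA per cell cannot be told apart.

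Levels below are the log2 signal minus that of the array's 75th percentile. CDKN1A and MDM2, both p53 targets, were higher on the treated p53+/+ arrays (2.54 to 2.70 and 1.29 to 1.76) than on the treated p53-/- arrays (-0.96 to -0.48 and -2.04 to -1.33). The array labelled p53+/+ 0 h gave CDKN1A and MDM2 levels of -1.14 and -1.66, and the p53-/- 0 h array gave -2.97 and -1.33. DCN, which encodes decorin, was singled out after its values were seen. On the array labelled p53+/+ 0 h it read 5.75, within the range of the 4 p53-/- arrays (5.70 to 6.07) and away from the treated p53+/+ arrays (2.09 to 2.37). With 1 such array, a change with treatment and a wrong label cannot be told apart, so many of the changes from it are given below also against the p53-/- 0 h array. The p53+/+ 48 h array showed 0 of 10 spike-in controls against 6 of 10 on each of the other 7 arrays, so results that rest on it are given without it too. All arrays were on 1 slide with genotype and slide column aligned, so these cannot be told apart.

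The bases before the starts of RRM2, TK1, RRM1 and DUT are shown because these genes were all lower in p53+/+ than in p53-/- cells at each treated time and carry the most matches to elements known from promoters of cell cycle genes. They are the 250 bases upstream of a RefSeq start in the assembly GRCh38.p14, read 5′ to 3′ on the gene's strand, with every match in capitals. They lie at chr2:10122489-10122738 (plus strand), chr17:78187053-78187302 (minus strand), chr11:4094435-4094684 (plus strand) and chr15:48331947-48332196 (plus strand). The RRM2 and TK1 windows each take in another RefSeq start of the gene.
RRM2: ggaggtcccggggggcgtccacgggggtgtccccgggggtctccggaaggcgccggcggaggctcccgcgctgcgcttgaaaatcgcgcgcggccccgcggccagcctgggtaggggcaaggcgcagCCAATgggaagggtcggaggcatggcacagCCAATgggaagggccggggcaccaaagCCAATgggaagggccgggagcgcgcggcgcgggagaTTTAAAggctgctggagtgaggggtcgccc
TK1: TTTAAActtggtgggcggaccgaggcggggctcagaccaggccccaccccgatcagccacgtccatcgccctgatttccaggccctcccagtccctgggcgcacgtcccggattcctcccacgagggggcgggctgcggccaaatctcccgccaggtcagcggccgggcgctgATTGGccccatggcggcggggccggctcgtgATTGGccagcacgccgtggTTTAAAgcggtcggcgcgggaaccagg
RRM1: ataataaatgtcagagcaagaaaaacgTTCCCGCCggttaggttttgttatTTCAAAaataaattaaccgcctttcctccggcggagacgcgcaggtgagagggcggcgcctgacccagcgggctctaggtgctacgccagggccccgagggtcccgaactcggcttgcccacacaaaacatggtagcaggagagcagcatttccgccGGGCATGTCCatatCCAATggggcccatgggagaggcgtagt
DUT: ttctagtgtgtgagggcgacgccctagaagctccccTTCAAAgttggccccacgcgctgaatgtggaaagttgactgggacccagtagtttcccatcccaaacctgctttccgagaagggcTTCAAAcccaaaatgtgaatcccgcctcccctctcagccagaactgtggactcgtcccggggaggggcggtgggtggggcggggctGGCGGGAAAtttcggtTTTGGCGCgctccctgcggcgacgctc
Both strands were searched for CCAAT, for TTTGAA and TTTAAA (forms of the element that the DREAM complex binds), for TTCCCGCC, for TTTCCCGC, TTTGGCGC, TTTCGCGC and TTTGCCGC (forms of the E2F site) and for the p53 half-site. The RRM2 window held 3 copies of CCAAT, beginning 123, 93 and 66 bases before the start, and TTTAAA 30 bases before it. At TK1, CCAAT lay on the minus strand 77 and 46 bases before the start and TTTAAA 27 and 250 bases before it. The RRM1 window held TTCCCGCC at 223 bases, TTTGAA on the minus strand at 199, a p53 half-site at 42 and CCAAT at 28. The DUT window held TTTGAA on the minus strand at 214 and 129 bases, TTTGGCGC at 27 bases, and TTCCCGCC and TTTCCCGC, which overlap each other, on the minus strand at 43 and 42. TTTAAA reads the same on both strands, and the RRM1 half-site matches the half-site pattern on both.

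Counted once over all their starts, 8 of the 9 genes had a promoter in the table, in 13 windows. The shares below are per window, so a gene with several starts had more chances of a match than they allow for. CCAAT was found for 5 of them and in 32.01% of all 35116 windows of this length, and 3 or more copies, as at RRM2, were in 2.93%. TTTAAA was found for RRM2 and TK1 and in 11.32% of windows, and TTTGAA for RRM1 and DUT and in 13.32%. TTCCCGCC was found for RRM1 and DUT and in 2.72% of windows, TTTCCCGC for DUT and TYMS and in 1.39%, and TTTGGCGC for DUT and in 0.55%. TTTCGCGC and TTTGCCGC, in 0.44% and 0.49% of windows, were found for none of the 8. The p53 half-site was found for RRM1 and in 5.57% of windows. The DCK window held no match to any of these letters. A match describes the letters of the window and is not a measured binding site.

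Among the reductase subunits, RRM2 and RRM2B moved in opposite directions in p53+/+ cells. The array labelled p53+/+ 0 h gave RRM2 a level of 3.28, and the p53+/+ arrays of 12, 24 and 48 h gave 2.08, 0.77 and -6.53. Its levels in p53-/- cells, in the same order of times, were 2.13, 3.64, 4.16 and 3.89. The treated p53+/+ arrays all lay below the treated p53-/- arrays, and the 48 h value was not well above background. From 0 h, RRM2 was 2.30- and 5.70-fold lower in p53+/+ cells at 12 and 24 h and at least 239-fold lower at 48 h, and 2.85-, 4.10- and 3.39-fold higher in p53-/- cells. A bound of this kind sets the brighter array against the lowest signal well above background on the dim array. Where a dim value lay above that signal, its plain ratio is given instead. That signal is the lowest of any probe that passed, so the bounds hold only for this floor and this processing. With another background correction (normexp) the mean RRM2 difference between the genotypes over the treated times was -4.05, against -5.13 here. At 0 h, before treatment, RRM2 already differed by 1.15 between the arrays, or 2.22-fold. Against the p53-/- 0 h array, its log2 difference in p53+/+ cells was -0.05 at 12 h and -1.36 at 24 h, and it was at least 108-fold lower at 48 h, so the fall at 12 h rests on the array labelled p53+/+ 0 h.

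On the array labelled p53+/+ 0 h the level of RRM2B was -1.62, and by 12, 24 and 48 h it was 2.20, 2.70 and 1.86. In p53-/- cells it read -1.80, -1.98, -1.29 and -1.04. The 3 treated p53+/+ arrays stood above all 5 other arrays. Its log2 rise from 0 h in p53+/+ cells was 3.83, 4.32 and 3.48, and against the p53-/- 0 h array it was 4.01, 4.50 and 3.66. In p53-/- cells its change from 0 h was -0.18, 0.51 and 0.76 on the log2 scale. A second RRM2B probe was higher in p53+/+ cells by 4.40, 4.02 and 4.25 at the 3 times. The probes did not follow the same course from 24 to 48 h in p53+/+ cells, since the first went from 2.70 to 1.86 and the second from 0.81 to 1.18.

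RRM1, the large subunit, had levels of 4.10, 3.97, 4.13 and 2.11 over the p53+/+ time course and 3.93, 4.29, 4.73 and 4.31 in p53-/- cells. Only the p53+/+ 48 h array stood apart, 3.97-fold below the array labelled p53+/+ 0 h and 4.58-fold below the p53-/- array of its time. Below the p53-/- 0 h array it was 3.52-fold. At 12 and 24 h RRM1 differed between the genotypes by -0.32 and -0.60, beyond the technical SD of 0.06. That SD comes from probes printed in 10 spots at the same signal level, and covers the spread between spots and not that between cultures.

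**Figure D1:**
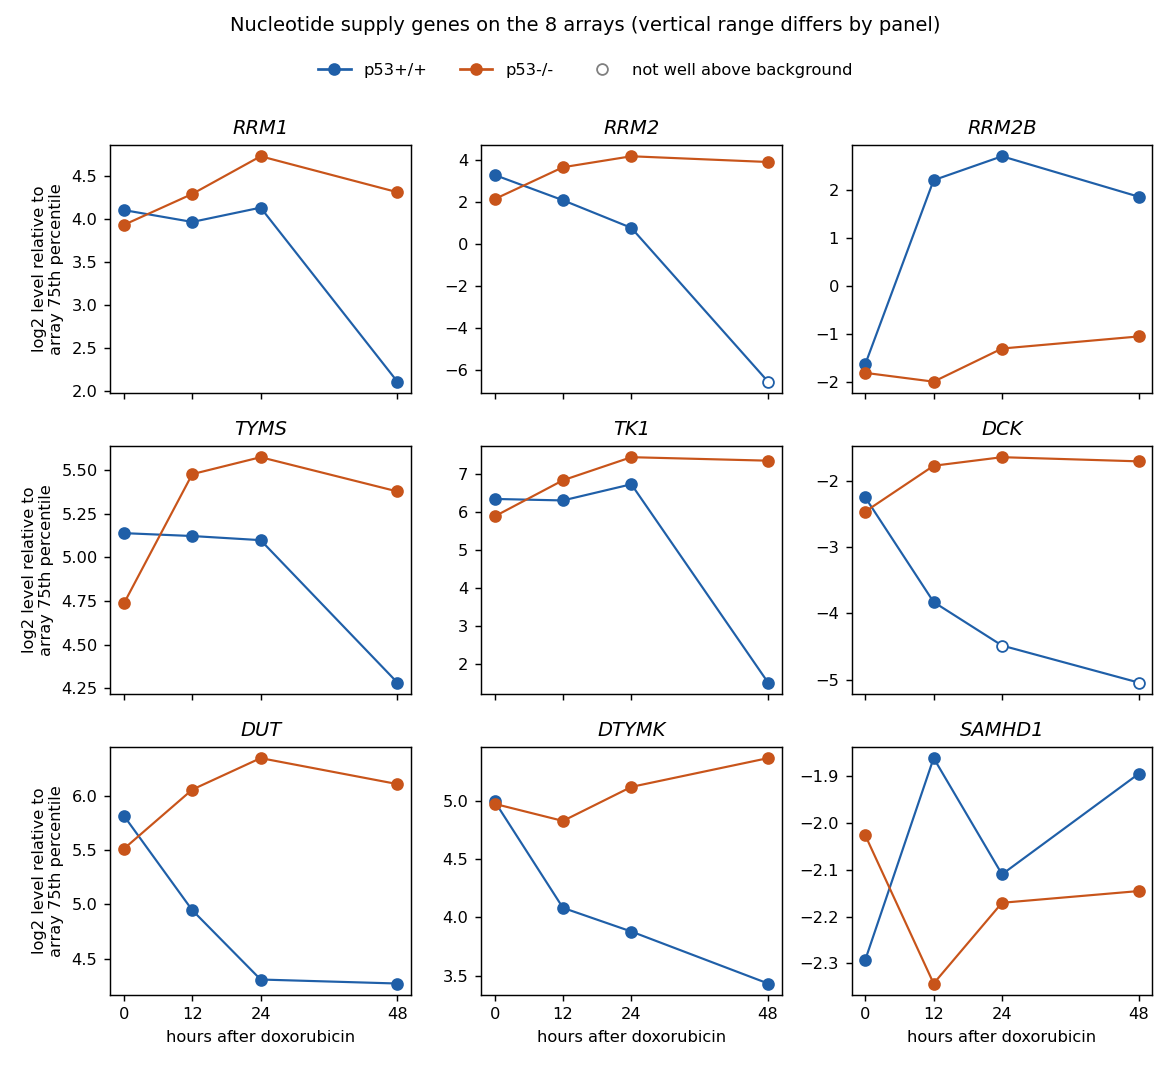
Log2 level scaled to its array's 75th percentile (vertical axis, range differs by panel) against hours after doxorubicin for the 9 genes, with 1 array per point, blue for p53+/+ and orange for p53-/-, and open circles for values not well above background. RRM2B rises to 2.70 in p53+/+ cells while RRM2 goes to -6.53, and RRM1 and TK1 keep near their 0 h level until 24 h and are lower at 48 h.

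In the thymidylate branch, DUT and DTYMK were lower in p53+/+ cells from 12 h and TYMS chiefly at 48 h. DUT, which breaks down deoxyuridine triphosphate and yields deoxyuridylate, read 5.82, 4.95, 4.31 and 4.27 over the p53+/+ course and 5.51, 6.06, 6.35 and 6.11 in p53-/- cells. All 3 treated p53+/+ arrays lay below all p53-/- arrays, by 2.16-, 4.13- and 3.59-fold at matched times. A second DUT probe gave log2 differences of -1.31, -2.18 and -2.12. From 0 h, DUT was lower by 0.87, 1.51 and 1.55 on the log2 scale in p53+/+ cells, and by 0.57, 1.21 and 1.24 against the p53-/- 0 h array.

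DTYMK, thymidylate kinase, read 4.98, 4.83, 5.12 and 5.37 in p53-/- cells. The array labelled p53+/+ 0 h lay 0.02 above the first of these, and the later p53+/+ arrays read 4.08, 3.88 and 3.43. The 0 h arrays being so close, its change in p53+/+ cells was nearly the same from either (-0.92, -1.12 and -1.57, or -0.89, -1.10 and -1.54). At matched times DTYMK was 1.68-, 2.37- and 3.83-fold lower in p53+/+ cells, and the groups of treated arrays did not overlap.

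TYMS, thymidylate synthase, read 5.14, 5.12, 5.10 and 4.28 over the p53+/+ course and 4.74, 5.48, 5.57 and 5.38 in p53-/- cells. Its differences between the genotypes were -0.35, -0.47 and -1.09. At 12 and 24 h these came with higher values in p53-/- cells, 1.67- and 1.79-fold above 0 h, and with changes of -0.02 and -0.04 in p53+/+ cells.

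Of the salvage kinases, DCK was lower from 12 h and TK1 at 48 h. TK1, the thymidine kinase of S phase, read 6.33, 6.30, 6.72 and 1.52 over the p53+/+ course and 5.88, 6.82, 7.43 and 7.34 in p53-/- cells. Its differences between the genotypes were -0.53, -0.71 and -5.81, the last of them 56.3-fold. Between 24 and 48 h TK1 was 36.7-fold lower in p53+/+ cells and changed by -0.09 in p53-/- cells.

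DCK phosphorylates deoxycytidine and other deoxynucleosides. It read -2.25, -3.83, -4.48 and -5.04 over the p53+/+ course and -2.46, -1.77, -1.64 and -1.70 in p53-/- cells. The p53+/+ values at 24 and 48 h were not well above background. DCK was 4.17-fold lower in p53+/+ cells at 12 h, 7.20-fold at 24 h as a plain ratio to the dim value, and at least 7.60-fold at 48 h. From 0 h DCK was 2.99-fold lower at 12 h, 4.72-fold at 24 h as a plain ratio, and at least 5.21-fold at 48 h. Against the p53-/- 0 h array these were 2.58-fold, 4.07-fold as a plain ratio, and at least 4.49-fold. These sizes depend on the background correction. With normexp the mean difference between the genotypes over the treated times was -1.36, against -2.75 here. The mean change from 0 h in p53+/+ cells was -0.91, against -2.21 here.

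SAMHD1 read -2.29, -1.86, -2.11 and -1.89 over the p53+/+ course and -2.03, -2.34, -2.17 and -2.15 in p53-/- cells. Its differences at matched times were 0.48, 0.06 and 0.25 with technical SDs of 0.19 to 0.24, and their mean lay between -0.33 and 0.37 over the alternatives tried, so it had no settled direction. Its second probe was not well above background on any array.

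**Figure D2:**
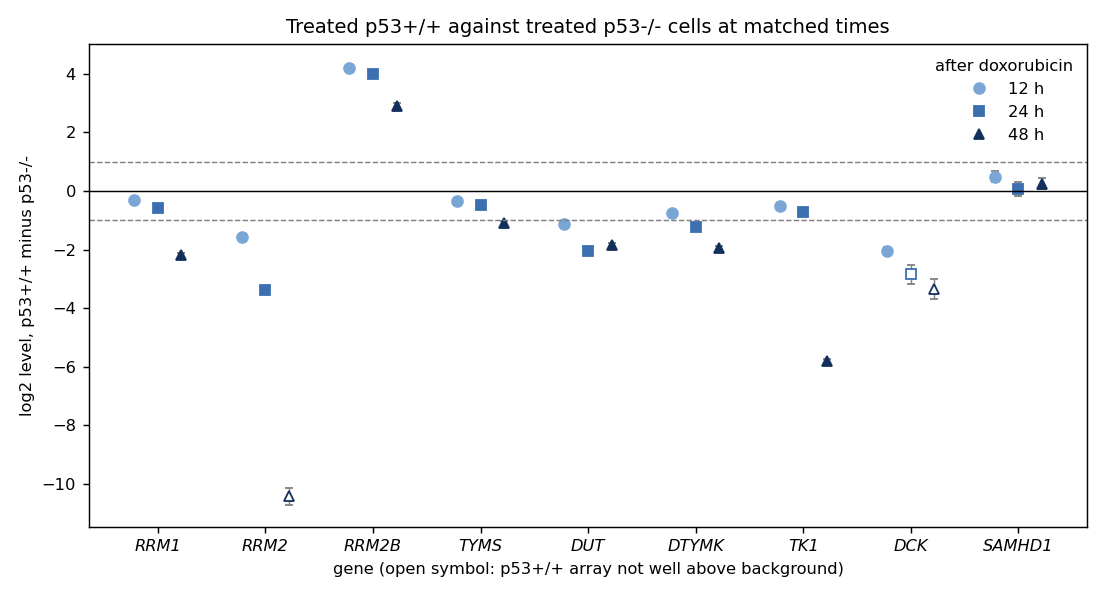
Log2 level of p53+/+ minus p53-/- cells (vertical axis) for each gene at 12 h (circles), 24 h (squares) and 48 h (triangles), with error bars for the technical SD, dashed lines at 2-fold and open symbols where the p53+/+ array was not well above background. RRM2B lies between 2.90 and 4.19, and RRM2, DCK and DUT lie below -1 at all 3 times.

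Across the set, 3 of 9 genes (RRM2, DCK and DUT) were at least 2-fold lower in p53+/+ than in p53-/- cells at all 3 times, against 5.92% of the 15811 genes tested. One gene, RRM2B, was at least 2-fold higher at all 3, against 6.75%. By time, 3, 4 and 7 of 9 genes were at least 2-fold lower at 12, 24 and 48 h, against 9.7%, 14% and 15.5% of all genes. The median difference of the 9 genes was -0.53, -0.71 and -1.94, and that of all genes 0.09, -0.03 and 0.10. For 7 of 9 genes the treated p53+/+ arrays all lay below the treated p53-/- arrays, as they did for 19.9% of all genes, and for RRM2B and SAMHD1 they all lay above, as for 24.6%.

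From the array labelled p53+/+ 0 h, 2, 4 and 6 of 9 genes were at least 2-fold lower at 12, 24 and 48 h, against 10.8%, 14.3% and 12.3% of all genes. RRM2 and DCK were so at all 3 times, against 6.39%, and RRM2B was at least 2-fold higher at all 3, against 9.53%. Counted from the p53-/- 0 h array instead, 1, 4 and 6 of 9 genes were at least 2-fold lower, against 11.0%, 13.7% and 12.1% of all genes. DCK alone was so at all 3 times, a count for which the share of all genes was not worked out. In p53-/- cells 1, 2 and 2 of 9 genes were at least 2-fold higher than at 0 h, against 4.82%, 9.65% and 14.9%. These were RRM2 at all 3 times, against 3.21% of genes, and TK1 at 24 and 48 h. No gene of the set was 2-fold lower in p53-/- cells at any time, where the changes lay between -0.32 and 2.03.

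**Figure D3:**
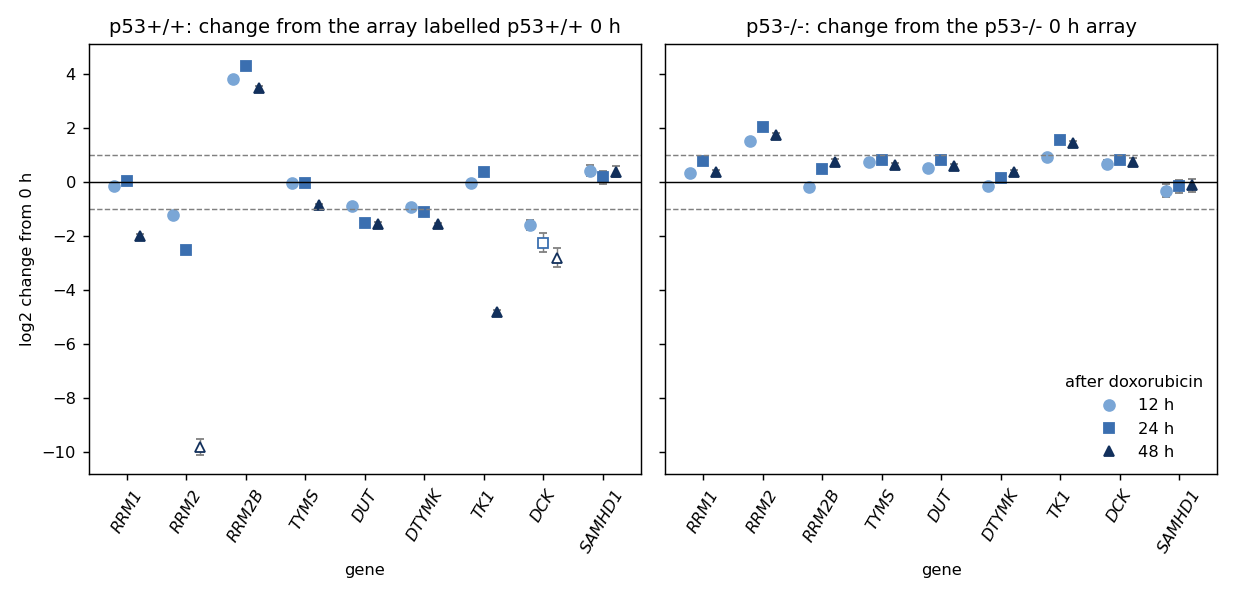
Log2 change from 0 h (vertical axis) at 12, 24 and 48 h for each gene, in p53+/+ cells against the array labelled p53+/+ 0 h (left) and in p53-/- cells against their own 0 h array (right), with technical SDs and dashed lines at 2-fold. In p53-/- cells RRM2 and TK1 pass 2-fold upward and none passes it downward, whereas in p53+/+ cells RRM2B is up and 6 genes are past 2-fold down at 48 h.

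The genes differed in when they moved. In p53+/+ cells RRM2, DCK, DUT and DTYMK had changed by -1.20, -1.58, -0.87 and -0.92 at 12 h, whereas RRM1, TYMS and TK1 had changed by -0.14, -0.02 and -0.04. Against the p53-/- 0 h array the first 4 were at -0.05, -1.37, -0.57 and -0.89, and RRM1, TYMS and TK1 at 0.03, 0.39 and 0.42. The place of RRM2 among the early genes thus rests on the array labelled p53+/+ 0 h. Between 24 and 48 h RRM1, RRM2 and TK1 went lower by 2-fold or more, 3 of 9 genes against 6.07% of all genes. DUT hardly moved in that interval (-0.04). For 7 of 9 genes the lowest of the arrays labelled p53+/+ was that of 48 h, against 17.1% of all genes, and for 6 of 9 the highest p53-/- array was that of 24 h, against 16%. The late values rest on the p53+/+ 48 h array, which showed no spike-in signal. Without it TK1 changed on average by 0.17 from 0 h in p53+/+ cells, and by -1.49 with it.

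With times standing in for replicates, limma tested the genotype over the 6 treated arrays, so its p-values set a difference against the movement over time. Arrays are not stated to be separate cultures. RRM2B was higher by 3.70 (SE 0.33, adjusted p = 0.00141 by limma). DCK was lower by a mean difference of -2.75 (SE 0.32, adjusted p = 0.00323 by limma), although its value was dim on 2 of the p53+/+ arrays. DUT (-1.67, SE 0.24, adjusted p = 0.00713 by limma) and DTYMK (-1.31, SE 0.25, adjusted p = 0.0168 by limma) were lower too. Thus 3 of 9 genes were called lower, against 7.4% of 28947 probes, and 1 was called higher, against 10.6%. RRM2, whose difference widened with time, had a mean of -5.13 (SE 2.09, adjusted p = 0.138 by limma) and was not called. Without the p53+/+ 48 h array RRM2 was called, at -2.48 (adjusted p = 0.0209 by limma), and so were RRM2B, DCK, DUT and DTYMK. That fit called 2009 of the 28947 probes lower and 2368 higher. Without the 24 h arrays none of the 9 was called, with an adjusted p of 0.0524 for RRM2B, and without both 48 h arrays DUT and DTYMK were not called (adjusted p = 0.0501 and 0.071 by limma). RRM1, TYMS, TK1 and SAMHD1 did not pass, with adjusted p from 0.150 to 0.341 by limma.

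The difference between the genotypes in the change from 0 h, limma's interaction, was called for 0 of 9 genes at an adjusted p of 0.05, against 0.746% of probes called lower and 0.94% higher. At an unadjusted p of 0.05, 4 of 9 passed, namely RRM2B, DCK, DUT and DTYMK, as did 17.1% of probes. RRM2B came nearest, at 3.52 (SE 0.66, adjusted p = 0.0591 by limma), then DCK at -2.96 (SE 0.63, adjusted p = 0.078 by limma). This comparison rests on the array labelled p53+/+ 0 h.

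E2F1, CCNF, PCNA and MKI67 were read beside RRM2. E2F1, a transcription factor of S phase genes, differed between the genotypes by -2.78 and -4.08 at 12 and 24 h and was at least 44.8-fold lower in p53+/+ cells at 48 h, where it was not well above background (adjusted p = 0.0499 by limma). CCNF, the cyclin F that targets RRM2 protein for degradation, differed by -1.14 at 12 h. It was 3.82-fold lower in p53+/+ cells at 24 h, as a plain ratio, and at least 5.22-fold lower at 48 h. At both of these times CCNF was not well above background in p53+/+ cells (adjusted p over the treated arrays = 0.00851 by limma). Both fits include these dim values. MKI67, a marker of cycling cells, differed by -1.25, -1.70 and -6.05 (adjusted p = 0.0998). PCNA, the sliding clamp of DNA replication, did not go the same way, with differences of 0.50, 0.60 and -0.00 (adjusted p = 0.401 by limma). Before treatment, CCNF and MKI67 were already lower on the array labelled p53+/+ 0 h (-2.95 and 0.71) than on the p53-/- 0 h array (-1.60 and 1.64). E2F1 and PCNA were higher there (0.91 and 4.31, against 0.20 and 3.24). The part of cell number or cell cycle position in the RRM2 values was not tested.

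Over the 8 arrays and 13762 genes above background on at least 4 of them, the genes whose levels followed RRM2 most closely were ZWINT, C5orf34, DTL, DSCC1 and FANCA, with Pearson's r from 0.993 to 0.995. RRM1 and TK1 ranked 106 and 128 in that order, at 0.967 and 0.961. The closest to RRM2B were TSTD1, BTG2, BBC3, SESN2 and UNC5B-AS1, at 0.995 to 0.998. DCK, DUT and DTYMK ran against RRM2B, at -0.91, -0.89 and -0.88, and RRM2 less closely, at -0.60. The points share the 8 arrays and their scaling, and the RRM2 levels include the dim value at 48 h.

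The wider nucleotide pathway was read from 5 lists of 56 genes, all of them above background on at least 1 array. Of these 13 were called lower and 2 higher by limma over the treated arrays, against 7.4% and 10.6% of probes, and 6 were at least 2-fold lower at all 3 times and 0 higher, against 5.92% and 6.75% of genes. Their median mean difference was -0.44, with -1.31 for the 9 supply genes and 0.05 for all genes. Purine synthesis had 5 of 13 lower (PRPS1, PRPS2, PPAT, PFAS and PAICS) and a median of -0.62. Pyrimidine synthesis had 2 of 9 lower (CAD and CMPK2), the folate and thymidylate cycle 2 of 9 (SHMT1 and MTHFD1), salvage and uptake 3 of 11 (UCK1, CDA and SLC29A1), and breakdown and pool cleaning 1 of 14 (DCTPP1). The 2 that were higher were ADK, adenosine kinase, at 1.83 (adjusted p = 0.0264 by limma), and ADA, adenosine deaminase, at 1.39 (adjusted p = 0.0396 by limma).

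CMPK2, a mitochondrial nucleotide kinase, differed by -1.98 at 12 h. It was 7.32-fold lower in p53+/+ cells at 24 h, as a plain ratio, and at least 6.47-fold lower at 48 h. At both of these times CMPK2 was not well above background in p53+/+ cells (adjusted p over the treated arrays = 0.00292 by limma). PFAS, an enzyme of purine synthesis, differed by -1.97 and -1.80 at 12 and 48 h (adjusted p = 0.0335 by limma) and was at least 7.31-fold lower at 24 h, where it was not well above background in p53+/+ cells. CDA, cytidine deaminase, differed by -1.31, -1.89 and -2.14 (adjusted p = 0.00429). SLC29A1, the nucleoside transporter ENT1, was lowest early, with differences of -2.46, -1.40 and -1.20 (adjusted p = 0.0118). SHMT1, a serine hydroxymethyltransferase that feeds the thymidylate cycle, differed by -1.09, -1.65 and -2.90 (adjusted p = 0.0271).

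**Figure D4:**
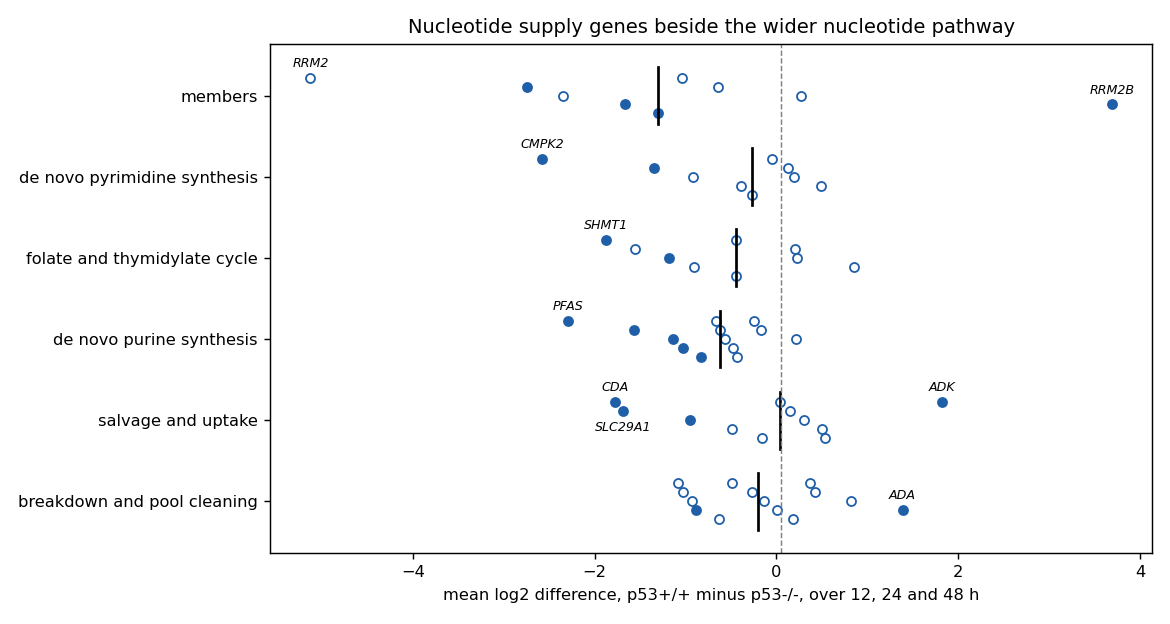
Mean log2 difference of p53+/+ minus p53-/- cells over 12, 24 and 48 h (horizontal axis) for the 9 supply genes and 5 lists of other nucleotide genes, with 1 circle per gene, filled where limma's adjusted p was under 0.05, a bar at each list's median and a dashed line at the median of all genes (0.05). The supply genes have the lowest median, -1.31, and span from RRM2 at -5.13 to RRM2B at 3.70.

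Markers of cell types moved with the genotype as well, and their part in the results on the supply genes was not tested. Of 7 basal epithelial markers 6 were called higher in treated p53+/+ cells, and the summed level of the list, in units of the 75th percentile of an array, was 348 to 495 there and 133 to 183 in p53-/- cells. Of 5 luminal markers none was called, with sums of 65.9 to 94.1 and 38.9 to 63.8, and PGR was not above background on any array. Of 4 fibroblast markers DCN, COL1A1 and PDGFRB were called lower, with sums of 4.31 to 5.22 and 52 to 67.1, and COL3A1 was above background on 0 arrays. The sums were nearly all DCN, which read far above the rest of the list. COL1A1 and PDGFRB were dim in p53+/+ cells at all 3 treated times. COL1A1 was at least 3.62-, 2.63- and 2.42-fold lower there. For PDGFRB the bounds at 12 and 24 h were 0.93 and 0.79, and both genotypes were dim at 48 h, so no fall is shown for it. The array labelled p53+/+ 0 h had a fibroblast sum of 54, within the p53-/- range. Its basal sum, 213, lay between the groups. The endothelial sum was 0.065 to 0.0893 and 0.242 to 0.383, with PECAM1 called lower. PECAM1 was dim in treated p53+/+ cells too. It was 5.83-fold lower there at 12 h, as a plain ratio, and at least 7.55- and at least 6.49-fold lower at 24 and 48 h. The immune sum was 1.82 to 3.3 and 2.68 to 6.1, with CD14 called lower.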

How the data were processed

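Total RNA of MCF10A cells was hybridised to 8 Agilent SurePrint G3 arrays in a single colour, 1 for each genotype and time, grouped by the sample labels. The authors deposited the output of Agilent Feature Extraction 10.7.3.1 (named in the submitters' processing notes), which gives for each spot a processed signal, that is an intensity corrected for background by that software, with flags for background and outliers. The deposited table of the series held the same intensities (503808 of 503808 values equal). No normalization between arrays is stated in the sources used here.

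Outlier spots (233 to 370 per array) and control spots were left out, and no spot was saturated. The log2 processed signal minus the log2 75th percentile of the array (661 to 1199) was averaged over spots. Of the spots, 55.04 to 67.65% were well above background. A gene took its probe with the highest mean, and names came from RefSeq accessions (GRCh38.p14), which matched 27227 of 42405 probes. A change was counted from 2-fold. limma (lmFit, eBayes, Benjamini-Hochberg adjustment) was run on the 28947 probes that passed background on at least 1 array. A check on simulated data used independent noise and the same shift at every treated time. It does not cover trends over time or dim values. The number of arrays limits the precision, and nothing says that they were separate cultures.

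The genes and lists were chosen with earlier results of these data known. The rule named the 9 supply genes, up to 5 pathway genes each way that were called and past 2-fold at all 3 times, the 5 genes most like RRM2 and RRM2B, and the check genes. ADK, ADA and the other called pathway genes were named after their values were seen. Some genes that the rule covers are not reported here. Promoters came from RefSeq. A planned comparison of subunit protein sequences was not run. Alternatives were other scalings, background correction, probe choice, filters, fold rules, baselines and time points left out. The tools were R 4.3.3 with limma 3.58.1 and Python 3.11.15 with pandas 2.3.3, numpy 2.4.6 and matplotlib 3.10.9.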

Additional observations from a re-analysis of the deposited data

Results flagged for a closer look

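For 5 genes the changes from 0 h ran in opposite directions in the genotypes on every treated array, lower in p53+/+ and higher in p53-/- cells except for SAMHD1, which ran the other way. For RRM2 the mean change was -4.51 in p53+/+ and 1.77 in p53-/- cells, a difference of -6.28 that includes the dim p53+/+ 48 h value. DCK changed by -2.21 and 0.76, a difference of -2.96. The means of DUT were -1.31 and 0.66, which differ by -1.97. TYMS had means of -0.30 and 0.74 and a difference of -1.04. SAMHD1 had 0.34 and -0.19 and a difference of 0.53. The directions of TYMS at 12 and 24 h in p53+/+ cells (-0.02 and -0.04, technical SD 0.06) lay within the spread between spots. So did those of SAMHD1 at 24 h in both genotypes (0.18 and -0.14) and at 48 h in p53-/- cells (-0.12), with a technical SD of 0.24. In limma's interaction none of the 5 had an adjusted p below 0.078, so a difference between the genotypes is not shown by that test. All 5 rest on the array labelled p53+/+ 0 h, whose DCN level lay in the p53-/- range. Counted from the p53-/- 0 h array, the p53+/+ changes of TYMS were 0.39, 0.36 and -0.45 and those of SAMHD1 0.17, -0.08 and 0.13, so neither ran one way.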

How the results depend on the processing

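The count of genes at least 2-fold lower in p53+/+ than in p53-/- cells at all 3 times, 3 here, was 5 under spike-in scaling, which has no p53+/+ 48 h array, and 1 under a 3-fold rule. Genes down from 0 h in p53+/+ cells at all 3 times, 2 here, numbered 4 under median scaling, no scaling, spike-in scaling and at least 2 of 3 times, 1 under normexp background correction and from the p53-/- 0 h array, 0 under a 3-fold rule, and 2 to 4 with a time left out. Genes up in p53-/- cells, 1 here, numbered 2 under median scaling and at least 2 of 3 times, 4 under no scaling and spike-in scaling, 0 under a 3-fold rule, and 1 to 2 with a time left out. By limma over the treated arrays, the genes called lower, 3 here, numbered 7 under spike-in scaling and 0 to 3 with a time left out, and those called higher, 1 here, 0 to 1. Of all 28947 probes, 2143 were called lower here, 6684 under spike-in scaling and 85 to 1211 with a time left out. Called higher were 3058 here and 207 to 1459 with a time left out. In the interaction, where 0 were called, genes called lower numbered 2 under no scaling and normexp, 1 under spike-in scaling and a signal floor, and genes called higher 1 under normexp, a signal floor and the filter to probes above background on all arrays. TK1's mean change from 0 h in p53+/+ cells turned to 0.17 without 48 h, its lowest being -2.43. The causes were not tested. Over the alternatives, 99 counts stayed within 1.5 times and 27 moved. Of single values, 492 were counted as unchanged against the threshold, 26 passed it, 17 fell short and 1 was counted as reversed. Some of the 492 did change sign. The mean genotype difference of SAMHD1 was 0.26 here and -0.33 without scaling. For TYMS the mean change in p53+/+ cells was -0.30 here, and 0.10 when taken from the other genotype's 0 h array. The mean difference between the genotypes kept its sign for all genes but SAMHD1. The median of all genes in the genotype differences, -0.03 to 0.10 here, was -0.76 to -0.37 without scaling, -0.72 to -0.43 on spike-ins, -0.18 to 0.06 by the median and 0.12 to 0.26 with normexp. Leaving out the p53+/+ 48 h array alone was an alternative chosen after seeing the data. With time point as a block, which pairs the genotypes by time, limma over the treated arrays called RRM2B (adjusted p = 0.00767), DCK (0.0123), DUT (0.0228) and DTYMK (0.0477) and no other of the 9, and the interaction called none. Over the treated arrays the block fit called 1881 of the 28947 probes lower and 2570 higher.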
